A study of Mus musculus with 18 samples.

Results

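E4f1 and Flywch2 are genes on mouse chromosome 17 whose array signals were low in dopamine neurons after 10 days of MPTP. They were read by 3 probe sets of the 45101 on the array, 1 for E4f1 (1450464_at) and 2 for Flywch2 (1424494_s_at, called A here, and 1438982_s_at, called B). The members are all probe sets that carry either name as their single gene symbol in the platform annotation, and both genes were chosen by their low measured values on the 10 day arrays. Differences between the 10 day and saline groups are therefore given as a description without a test. The suffix _s_at marks probes that match more than 1 transcript, so neither Flywch2 probe set is sure to read Flywch2 alone.

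The samples were laser-captured dopamine neurons of 2 midbrain regions, the substantia nigra (SN) and its neighbour, the ventral tegmental area (VTA). All groups came from adult C57Bl/6 mice with the hTH-GFP transgene, a green fluorescent protein reporter for cells that use the tyrosine hydroxylase promoter. MPTP, whose metabolite enters dopamine neurons through their transporter and blocks mitochondrial complex I, was given at 4 mg/kg for 2 or 10 days, and control mice received saline for 10 days. Housing was single for 9 weeks and tissue was taken 7 days after the last injection. The source names call the control samples untreated, whereas the protocol gives saline. Each of the 6 groups (SN and VTA, each with saline, 2 days of MPTP and 10 days of MPTP) had 3 arrays described as biological replicates. The 2 day groups thus differ from saline also in the number of injection days. The labels tie no array to a mouse, so SN and VTA arrays may share mice, and p-values measure the spread between these arrays only. Captured samples of this kind cannot tell fewer cells of a type apart from less RNA per cell.

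E4F1 is a zinc finger transcription factor that was first known for binding the adenovirus E4 promoter, and it also acts as an atypical ubiquitin ligase for p53. In mouse cells it controls genes of the pyruvate dehydrogenase complex and the checkpoint kinase gene Chek1, and mouse embryos that lack it die early. Flywch2 is named for the FLYWCH family, whose member FLYWCH1 binds β-catenin in human cells. The values are log2 signals minus each probe set's own median over the 18 arrays, so they show how a probe set varies between arrays and hold no absolute level, and levels of different probe sets cannot be compared.

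The 250 bases before the start site of each gene are shown because both genes were low on the same arrays and lie on the same chromosome. They come from RefSeq on build GRCm38.p6, at chr17:24455393-24455642 for E4f1 and chr17:23786082-23786331 for Flywch2, both on the minus strand and written 5′ to 3′. Capitals mark matches on either strand to TGACGT (the core of the E4F and CREB sites), CCAAT (the site of the NF-Y trimer), GGGCGG (the GC box of SP factors) and TGCGCA (the core of the NRF1 site), and no matches overlap.
E4f1: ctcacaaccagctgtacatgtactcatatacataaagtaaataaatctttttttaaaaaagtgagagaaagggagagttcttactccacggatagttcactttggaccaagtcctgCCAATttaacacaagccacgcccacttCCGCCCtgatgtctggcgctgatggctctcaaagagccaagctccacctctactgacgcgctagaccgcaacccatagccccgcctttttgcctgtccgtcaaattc
Flywch2: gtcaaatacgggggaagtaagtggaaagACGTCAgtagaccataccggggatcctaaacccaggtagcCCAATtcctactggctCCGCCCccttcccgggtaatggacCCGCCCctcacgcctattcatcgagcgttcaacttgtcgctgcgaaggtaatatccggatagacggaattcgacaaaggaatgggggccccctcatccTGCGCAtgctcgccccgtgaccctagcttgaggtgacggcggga
Both sequences hold 1 CCAAT on the forward strand, and 33.8% of the 32851 RefSeq promoter entries cut to the same length hold it on either strand. GGGCGG was found once on the reverse strand for E4f1 and at 2 places on the reverse strand for Flywch2, and 32.7% of promoters hold it. TGACGT (6.47% of promoters) and TGCGCA (6.43%) were found only in the Flywch2 sequence, at 1 place each. The E4f1 sequence is 47.2% G and C and that of Flywch2 58%, against a median of 52.4% over all entries.

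E4f1 was low on every 10 day array in both regions. In SN its values were -0.012, 0.62 and 0.56 on the saline arrays, 0.21, 0.16 and 0.17 after 2 days of MPTP, and -1.03, -0.71 and -1.13 after 10 days. In VTA they were -0.43, -0.048 and 0.27 in saline, 0.012, 0.21 and 0.87 after 2 days, and -1.28, -1.05 and -0.66 after 10 days. The 6 values of the 10 day arrays, from -1.28 to -0.66 with a median of -1.04, all lay below the 12 other arrays, which ran from -0.43 to 0.87. Of the 45037 probe sets that are not array controls, 0.0466% had all 6 10 day arrays below all 12 others and 0.0511% had them all above. The genes were chosen for this pattern, so that share says nothing further about them.

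Between 10 days of MPTP and saline, E4f1 was lower by 2.54-fold in SN (log2 -1.35 ± 0.25, SE, 3 arrays per group) and by 1.90-fold in VTA (log2 -0.93 ± 0.25). With probe sets of a gene averaged, the SN difference was the lowest of all 18193 genes, and the VTA difference was in place 46 from the lowest. Averaging narrows the differences of genes with several probe sets, and over the 45037 single probe sets E4f1 was in place 16 in SN and 206 in VTA, behind Flywch2 probe set A in places 12 and 133. Flywch2 probe set B was in places 780 and 861. The difference between 10 and 2 days of MPTP was -1.14 ± 0.25 in SN and -1.36 ± 0.25 in VTA. The 2 day groups did not share the low values: E4f1 was at -0.21 ± 0.25 against saline in SN and at 0.44 ± 0.25 in VTA, and the arrays of these groups overlapped their controls. These 2 day values shifted in size with single arrays left out and kept their sign. In SN the difference was -0.41 without saline array 1, -0.13 without saline array 3 and -0.093 without saline array 2. In VTA it was 0.18 without 2 day array 3, 0.25 without saline array 1 and 0.61 without saline array 3. The 2 day and 10 day differences share the saline arrays.

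**Figure D1:**
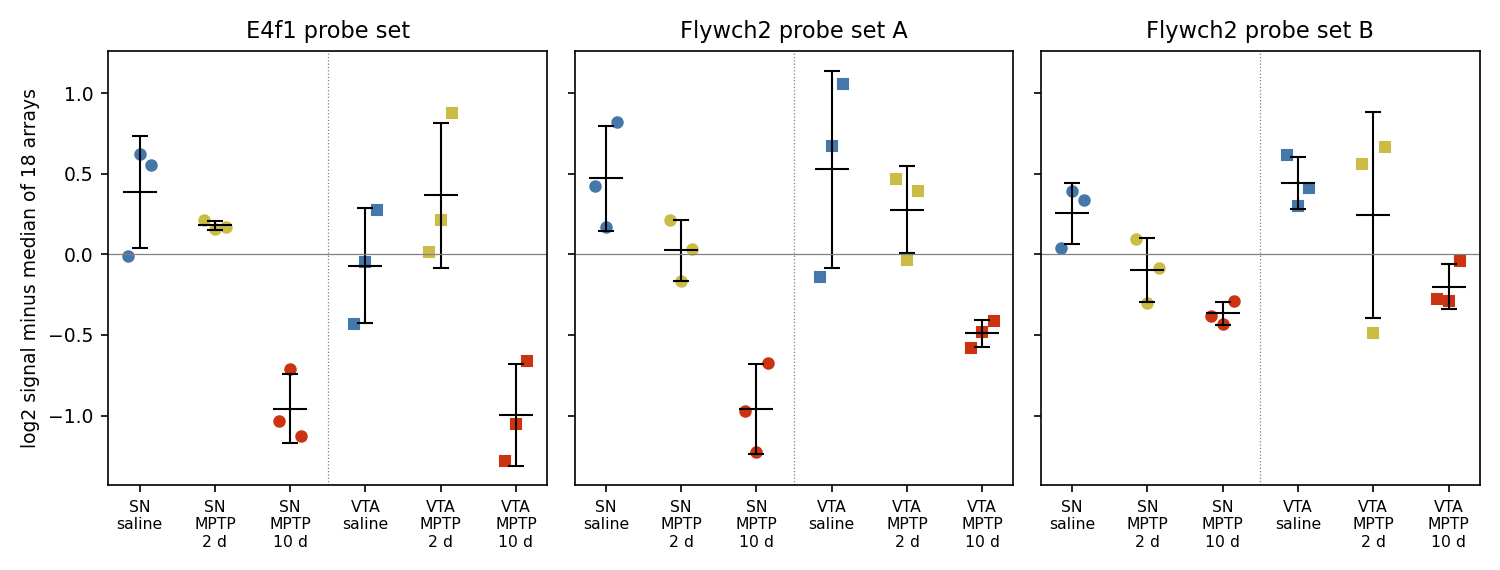
Each point is 1 array (circles SN, squares VTA), with the mean ± SD (n = 3) of each of the 6 groups in black, and the y axis gives the log2 signal minus the median of the 18 arrays for the E4f1 probe set and the Flywch2 probe sets A and B. The 6 10 day arrays lie below every other array for E4f1 and for Flywch2 probe set A, while for probe set B 3 other arrays lie below the highest 10 day array.

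Flywch2 probe set A was likewise low on every 10 day array. Its values in SN were 0.43, 0.17 and 0.82 in saline, 0.21, -0.17 and 0.034 after 2 days, and -0.97, -1.23 and -0.67 after 10 days. In VTA they were -0.14, 0.67 and 1.05 in saline, 0.47, -0.034 and 0.39 after 2 days, and -0.58, -0.48 and -0.41 after 10 days. The highest 10 day array, at -0.41, lay below the lowest of the 12 others, at -0.17. The 10 day difference from saline was -1.43 ± 0.26 in SN, a 2.69-fold lower signal, and -1.02 ± 0.26 in VTA, a 2.03-fold lower signal. The difference in VTA was -1.35 without VTA saline array 1, the lowest saline array, and -0.755 without VTA saline array 3, the highest. After 2 days it was -0.45 ± 0.26 in SN and -0.25 ± 0.26 in VTA, with overlapping arrays. The latter was -0.59 without VTA saline array 1 and 0.012 without VTA saline array 3, and the former -0.27 without SN saline array 3.

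Flywch2 probe set B followed the same direction with smaller differences. In SN it was at 0.038, 0.39 and 0.33 in saline, 0.092, -0.30 and -0.086 after 2 days, and -0.38, -0.43 and -0.29 after 10 days. In VTA it was at 0.62, 0.30 and 0.41 in saline, 0.56, -0.49 and 0.67 after 2 days, and -0.27, -0.29 and -0.038 after 10 days. The 10 day arrays lay below the saline arrays within each region, but array 2 of VTA after 2 days, at -0.49, was the lowest of all 18. The 10 day difference was -0.62 ± 0.24 in SN and -0.64 ± 0.24 in VTA, in fold terms 1.54 and 1.56 lower. Against 2 days of MPTP, probe set A was at -0.98 ± 0.26 in SN and -0.77 ± 0.26 in VTA after 10 days, and probe set B at -0.27 ± 0.24 and -0.45 ± 0.24. Without array 2 of VTA after 2 days the last value was -0.81, and the 2 day difference of probe set B in VTA went from -0.20 ± 0.24 to 0.17.

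All 3 probe sets were thus lower without overlap in both regions after 10 days, where 0.422% of all probe sets were. Lower values without overlap were seen in 5.5% of probe sets in SN alone and in 4.57% in VTA alone. These are the comparisons that chose the genes. After 2 days none of the 3 probe sets lay below saline without overlap, where 7.06% of all probe sets did so in SN and 4.51% in VTA.

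In the order of group means, E4f1 was lowest in VTA after 10 days (-0.997 ± 0.31, SD, n = 3), followed by SN after 10 days (-0.96 ± 0.22), VTA in saline (-0.07 ± 0.36), SN after 2 days (0.18 ± 0.030), VTA after 2 days (0.37 ± 0.45) and SN in saline (0.39 ± 0.35). The arrays of neighbouring groups in that order overlapped, except between SN after 10 days and VTA in saline. For Flywch2 probe set A the order was SN after 10 days (-0.96 ± 0.28), VTA after 10 days (-0.49 ± 0.083), SN after 2 days (0.026 ± 0.19), VTA after 2 days (0.28 ± 0.27), SN in saline (0.47 ± 0.33) and VTA in saline (0.53 ± 0.61). The 10 day groups did not overlap each other or the next group, and the other neighbours overlapped. Probe set B had the same order, and the 10 day groups were its only neighbours without overlap.

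Comparisons whose differences leave out the 10 day arrays were tested in 1 limma model over all 18 arrays. P-values were adjusted by Benjamini-Hochberg over 45037 probe sets. The estimate of spread in this model draws on all 18 arrays, the 10 day arrays included. The saline arrays also took part in the choice of the genes. They enter VTA minus SN in saline and the regional difference of the 2 day response, so these tests are not free of that choice. In saline, VTA minus SN was -0.46 ± 0.25 for E4f1, 0.057 ± 0.26 for Flywch2 probe set A and 0.19 ± 0.24 for probe set B (SE; limma, adjusted p = 1 for each). After 2 days of MPTP it was 0.19 ± 0.25, 0.25 ± 0.26 and 0.34 ± 0.24 (limma, adjusted p = 1 for each). The 2 day response differed between VTA and SN by 0.64 ± 0.35 for E4f1, 0.19 ± 0.37 for probe set A and 0.16 ± 0.34 for probe set B (limma, adjusted p = 1 for each). Several of these small differences had no stable sign. In saline, VTA minus SN of probe set A was -0.094 without SN saline array 2, -0.016 without VTA saline array 2 and -0.21 without VTA saline array 3. After 2 days, VTA minus SN of E4f1 was -0.068 without VTA array 3. The regional difference of the 2 day response was -0.14 for probe set A without VTA saline array 1, and for probe set B -0.0025 and -0.0545 without VTA 2 day arrays 1 and 3. None of the 9 tests passed, and limma called 0% of all probe sets in each of the 3 comparisons, with 2142, 1326 and 1510 probe sets at an unadjusted p under 0.05. The corresponding regional difference of the 10 day response, given without a test, was 0.42 ± 0.35, 0.41 ± 0.37 and -0.023 ± 0.34.

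**Figure D2:**
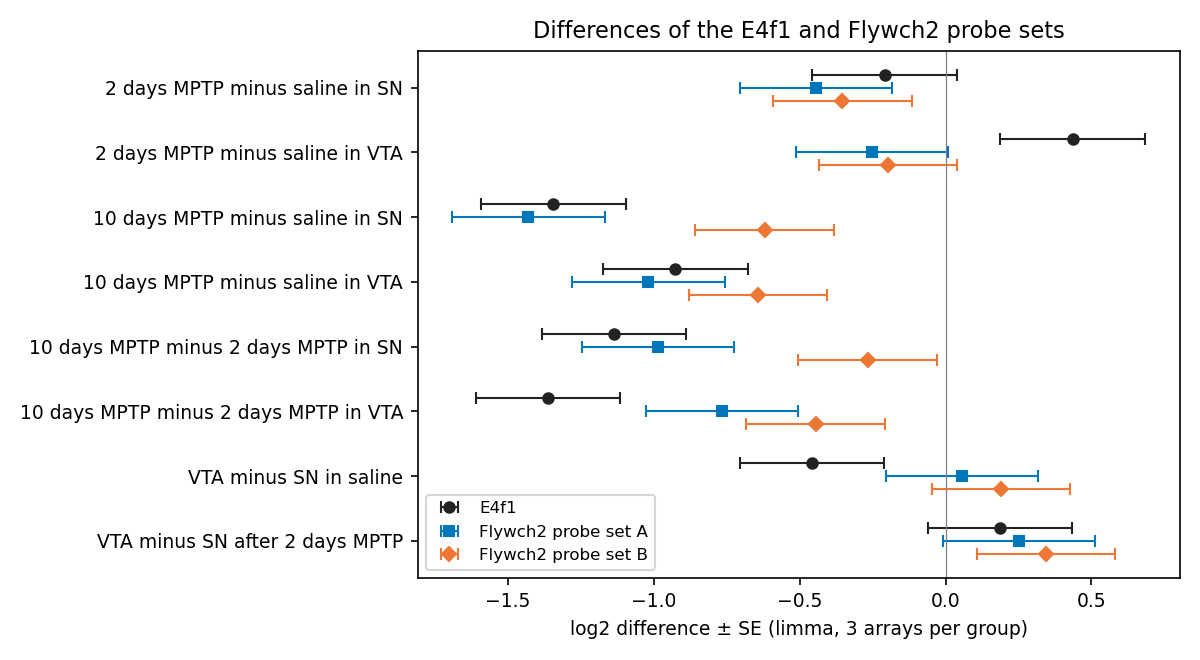
Points are log2 differences between groups and bars their SE from limma (3 arrays per group) for E4f1 and the Flywch2 probe sets A and B. The differences of 10 days from saline run from -1.43 to -0.62, whereas the differences between VTA and SN in saline and after 2 days run from -0.46 to 0.34.

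Correlations between the probe sets were computed within the 12 saline and 2 day arrays, because the 10 day arrays stood apart from the rest. Between E4f1 and Flywch2 probe set A, Pearson's r was 0.27 (permutation p = 0.395, adjusted p = 0.74; Spearman's rho 0.21, permutation p = 0.514). Between E4f1 and probe set B it was 0.11 (permutation p = 0.74, adjusted p = 0.74; rho 0.18, permutation p = 0.579). The Flywch2 probe sets followed each other at r = 0.44 (permutation p = 0.142, adjusted p = 0.425; rho 0.37, permutation p = 0.236). Without the 2 arrays farthest from the median, the values of r were 0.060, 0.17 and 0.44 in that order. None of these 3 relations passed, with adjustment over the 6 computed. The other 3, within the 6 10 day arrays, are not given, since SN and VTA did not overlap there for either Flywch2 probe set and 3 arrays per region are too few for a test. SN and VTA arrays in these sets may share mice.

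The genes whose pattern was most like that of E4f1 were taken as those of highest Pearson r over the 18 arrays. This is a description, since the step between the 10 day arrays and the rest enters each r. They were the thioredoxin reductase gene Txnrd1 (r = 0.88), the endoplasmic reticulum chaperone partner gene Sdf2l1 (0.85), the deubiquitinase gene Usp37 (0.82), the ribosomal protein gene Rps2 (0.81), the zinc finger gene Zbtb40 (0.81), the SUMO gene Sumo3 (0.81), Cys1 (0.81) and Emc4, a subunit of a membrane protein insertase (0.81). Over the 12 saline and 2 day arrays alone the r of these 8 genes ran from 0.32 for Cys1 to 0.70 for Usp37. These 12 arrays also took part in choosing the genes, so r over them is a description too. The opposite pattern was seen in the kinase gene Tlk2 (-0.81), the class I histocompatibility genes H2-D1 (-0.81), H2-K1 (-0.80) and H2-Q2 (-0.77), and Cd33 (-0.78), with 2 clone-named genes skipped. Over the 12 arrays H2-K1 was at r = 0.40 and H2-D1 at -0.027, so their opposite pattern lay in the 10 day arrays.

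Those most like Flywch2, as the mean of its probe sets, were the melanogenesis enzyme gene Dct (0.84), Slc9a3r2 (0.797), Cuta (0.79), the lipid transporter gene Abca3 (0.78), the fibroblast growth factor gene Fgf15 (0.78), Trp53rka (0.78), Sumo3 (0.78) and the chemokine receptor gene Ccr6 (0.77). Over the 12 saline and 2 day arrays alone the r of these 8 genes ran from 0.47 for Sumo3 to 0.77 for Trp53rka. Here too the 12 arrays took part in choosing the genes. Of these 8, Slc9a3r2, Cuta, Abca3 and Ccr6 are on chromosome 17, and among the 8 for E4f1 it was Rps2 alone. Over those 12 arrays Slc9a3r2 was at 0.71, Cuta at 0.74, Abca3 at 0.73 and Ccr6 at 0.49. Of the 5 named genes most opposed, 3 for E4f1 (the class I genes) and 1 for Flywch2, the zinc finger gene Zfp871 at -0.83, are on chromosome 17. The skipped clone names among the opposed were AA388235 (-0.82) and 1700063D05Rik (-0.79) for E4f1, and 0610040J01Rik (-0.77) and Gm16386 (-0.76) for Flywch2. AA388235 and Gm16386 are on chromosome 17, the others on chromosomes 9 and 5. Chromosome 17 holds 839 of the 18143 genes that could be placed on a chromosome. Gene order was taken from RefSeq on GRCm38.p6. Flywch2 holds place 118 and E4f1 place 141 among the 839, with 22 measured genes between them.

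Flywch1, the gene next to Flywch2 and of the same family, was at -0.017 ± 0.26 and -0.49 ± 0.30 in SN and at -0.35 ± 0.26 and -0.014 ± 0.30 in VTA by its probe sets 1426982_at and 1452267_at (limma, adjusted p = 0.947 or above). Its 10 day arrays, from -0.37 to 0.16, lay within the range of the other arrays. Among the 10 measured genes on each side of E4f1, the median 10 day difference was 0.11 in SN and 0.076 in VTA, against -0.017 and -0.005 over all genes. The SN differences of these neighbours ran from -0.25 for Rab26 to 1.02 ± 0.30 for Caskin1 (limma, adjusted p = 0.8). Of these 20 genes, Amdhd2 was higher without overlap in both regions (0.23 ± 0.13 in SN, 0.31 ± 0.13 in VTA) and Abca3 lower (-0.22 ± 0.11 and -0.32 ± 0.11), and the probe sets of Abca3 ran from -0.75 to 0.11 in VTA. Around Flywch2 the medians were -0.026 and -0.076, and Paqr4 (0.32 ± 0.15 and 0.29 ± 0.15) and the clone-named 9530082P21Rik (0.51 ± 0.21 and 0.72 ± 0.21) were higher without overlap. In all, 1.11% of genes lay apart from saline in the same direction in both regions.

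On chromosome 17, 26 of 839 genes, or 3.10%, had non-overlapping arrays in the same direction in SN and VTA, 17 higher and 9 lower, E4f1 and Flywch2 among the latter. Without these, which were chosen for being low, it was 24 of 837 genes, or 2.87%. On the other chromosomes it was 174 of 17304 genes, or 1.01%, and from 0.201% to 1.59% on each of the 19 with 100 or more measured genes. For 2 days of MPTP against the same saline arrays, chromosome 17 was at 1.67% and the others between 0.648% and 2.62%, with 1.73% of all genes. The counts are a description: which chromosome to look at was set by genes already chosen, and neighbouring genes are not independent.

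**Figure D3:**
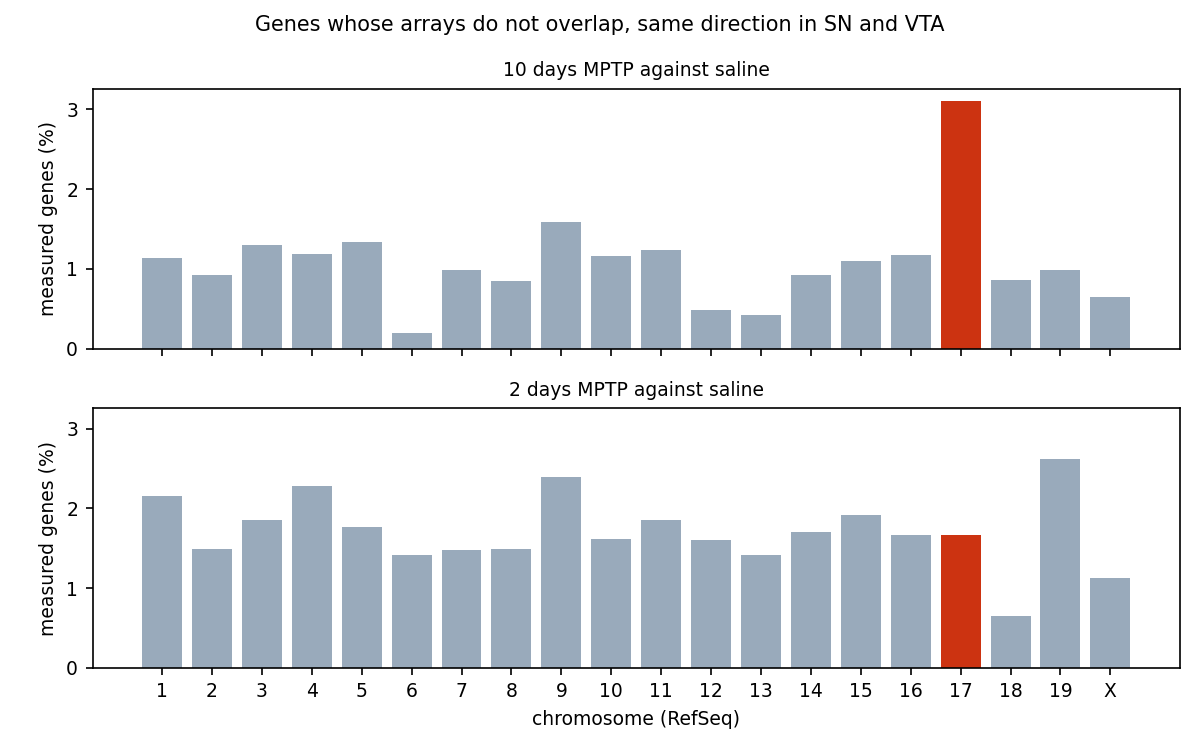
Bars give the percentage of measured genes on each chromosome whose 3 MPTP and 3 saline arrays did not overlap in SN and in VTA, in the same direction, for 10 days (top) and 2 days (bottom), with chromosome 17 in red. Chromosome 17 stands at 3.10% for 10 days, above the 1.59% of the next highest chromosome, and at 1.67% for 2 days, within the range of the others.

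In consecutive bins of 50 measured genes, the bin that holds E4f1 and Flywch2 (places 101 to 150) had 5 such genes beside the chosen pair, and the next bin had 5. The highest count in any of 337 full bins on other chromosomes was 4 and the median 0. The same 100 genes had 0 such genes after 2 days of MPTP. The first 450 places held 23 of the 26 (5.11% of their genes), with E4f1 and Flywch2, chosen for being low, counted in. The remaining 389 places held 3 (0.771%, below the 1.01% of the other chromosomes). This boundary was set after the values were seen. The labels give C57Bl/6 for every sample. Whether the 10 day mice carried another sequence on this stretch, which could alter how probes bind, was not tested, and it cannot be told apart from the treatment in these values. The low signals of E4f1 and Flywch2 are therefore array signals and not shown to be RNA levels. In this stretch the cell cycle inhibitor gene Cdkn1a, a target of p53, was at -1.29 ± 0.30 in SN and -0.93 ± 0.30 in VTA (limma, adjusted p = 0.475 and adjusted p = 0.706). Its 10 day arrays ran from -1.23 to -0.18. Its saline arrays were at 0.54, 0.73 and 0.74 in SN and at 1.26, -0.14 and 0.73 in VTA. The lowest of the 12 saline and 2 day arrays was at -0.30, below the highest 10 day array. The 2 day differences of Cdkn1a from saline were -0.65 in SN and -0.60 in VTA. Ccr6, in place 24, was at -0.83 ± 0.28 and -1.06 ± 0.28, and Rps2, in place 159, at -0.38 ± 0.12 and -0.27 ± 0.12.

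With probe sets averaged, limma called 1 in SN (0.0055%) and 2 in VTA (0.011%), which were the clone-named AA388235 in SN (1.43 ± 0.20, adjusted p = 0.0404) and AA388235 and H2-K1 in VTA (1.37 ± 0.20 and 1.39 ± 0.21, adjusted p = 0.0454 for each). They are adjacent, in places 375 and 376. On the 10 day arrays H2-K1 ran from 0.87 to 1.61 and AA388235 from 0.84 to 1.68, above the other arrays, which ran from -0.54 to 0.24 and from -0.32 to 0.22. The 4 probe sets of H2-K1 differed widely, from 0.029 to 3.62 in SN, and the 9 of H2-D1 ran from -0.53 to 2.51. Over single probe sets, 7 passed in SN (0.0155%), 6 of them for H2-K1, H2-D1 and AA388235 and 1 for the mitochondrial RNA processing gene Pnpt1 on chromosome 11, which had the smallest adjusted p (limma, adjusted p = 0.000915). In VTA 2 passed (0.00444%), 1 each for Pnpt1 (limma, adjusted p = 0.00737) and H2-K1 (limma, adjusted p = 0.0278). With probe sets averaged, 17 of 18193 genes (0.0934%) had all 6 10 day arrays apart from all 12 others, and 9 of the 17 are on chromosome 17. Those 9 are E4f1 and Rps2, which were lower, and AA388235, H2-K1, H2-D1, Telo2, Gm16386, Brpf3 and BC003965, which were higher. This count was chosen after the values were seen. Flywch2 is not among the 17, since the mean of its probe sets overlapped, although probe set A taken singly lay apart.

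**Figure D4:**
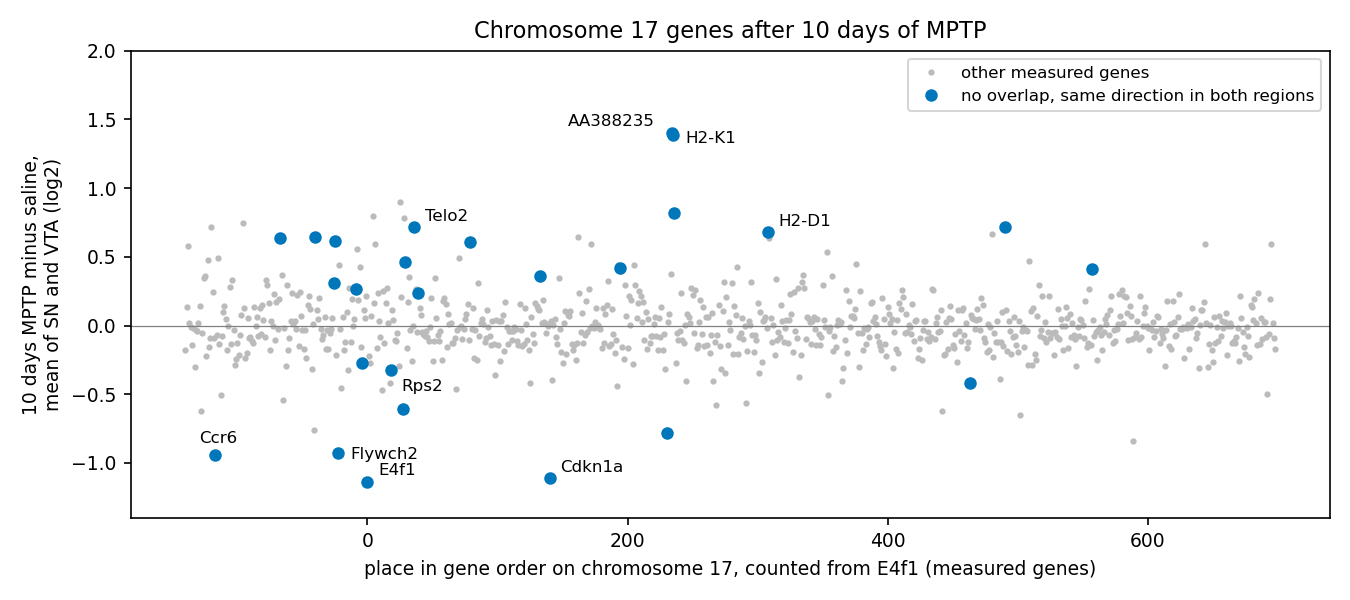
Each point is 1 of the 839 measured genes of chromosome 17 in gene order, counted from E4f1 at 0, and the y axis gives the 10 day minus saline difference (log2, mean of SN and VTA). Blue points are the 26 genes without overlap and in the same direction in both regions. Of these, 23 lie in the first 450 places, the chosen E4f1 and Flywch2 among them.

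Genes tied to E4F1 by function had small median differences. Of 8 measured genes for proteins reported to bind E4F1 or control p53, 6 were higher and 2 lower in SN after 10 days, with a median of 0.085, and 6 higher and 2 lower in VTA, with a median of 0.077. Of 8 measured genes reported to be under E4F1 control, 3 were higher and 5 lower in each region, with medians of -0.005 in SN and -0.087 in VTA. Among these, Dlat, which encodes the E2 subunit of pyruvate dehydrogenase, was at 0.049 ± 0.14 in SN and -0.12 ± 0.14 in VTA, and Chek1 at 0.16 ± 0.19 and 0.26 ± 0.19. Nsun3 had the largest difference of these 8 genes in VTA, at -0.38 ± 0.16, and was at -0.010 ± 0.16 in SN. Of 13 measured genes of the pyruvate dehydrogenase complex, its regulators and pyruvate carriers, 10 were lower in SN (median -0.077) and 6 in VTA (median 0.034), and Pdhx, the component that anchors the E3 subunit, was at -0.78 ± 0.28 in SN and -0.064 ± 0.28 in VTA. The last 2 lists share members, Dlat among them.

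Of 19 measured p53 target genes, 12 were lower in SN, with a median of -0.11, and 11 in VTA, with a median of -0.080. Cdkn1a was the lowest of them in SN, and Perp, a membrane protein gene, was at -0.86 ± 0.45 and -1.03 ± 0.45. The highest of them in VTA was Apaf1, at 0.66 ± 0.25 there and 0.049 ± 0.25 in SN. Of 6 measured genes of the FLYWCH and β-catenin list, 4 were lower in SN (median -0.16) and 5 in VTA (median -0.16), among them Lef1 at -0.16 ± 0.32 and -0.40 ± 0.32. No gene of these 5 lists passed in either region by limma. At an unadjusted p under 0.05 there were 0 and 0 of the E4F1 partners, 0 and 1 of the E4F1 targets, 1 and 0 of the pyruvate dehydrogenase list, 2 and 4 of the p53 targets and 0 and 0 of the FLYWCH list, in SN and VTA in that order. Over all genes the share at that threshold was 5.57% in SN and 5.41% in VTA.

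After 10 days all 15 dopamine neuron genes were lower in SN (median -0.51) and 14 of 15 in VTA (median -0.17). Their mean per array ran from 0.37 to 1.01 in SN saline, from -0.49 to -0.13 in SN after 2 days and from -0.17 to 0.31 in SN after 10 days. In SN the arrays of both durations lay below saline. The means of E4f1 in SN were 0.39, 0.18 and -0.96 in saline and after 2 and 10 days, and those of Flywch2 probe sets A and B were 0.47, 0.026 and -0.96 and 0.25, -0.099 and -0.37. In VTA the mean ran from -0.57 to 0.73 in saline and from -0.33 to 0.58 after 10 days, and the arrays overlapped. Ependyma and choroid plexus genes were at medians of 0.29 in SN and 0.44 in VTA, and their mean per array went from between -0.40 and -0.047 in SN saline to between 0.22 and 0.80 after 10 days. That mean leans on 1 gene, Ttr, which was at 4.76 ± 2.30 in SN. Of the 8 genes, 5 were higher and 3 lower in SN. Median differences in SN and VTA were 0.18 and -0.071 for astrocyte, -0.24 and -0.25 for oligodendrocyte, 0.028 and -0.015 for microglia, 0.12 and 0.057 for endothelium and -0.16 and 0.015 for GABA neuron markers. No gene of these 7 lists passed by limma in either region. At an unadjusted p under 0.05 there were 5 dopamine neuron genes in SN and 0 in VTA, and from 0 to 2 genes of each other list in either region, against 5.57% of all genes in SN and 5.41% in VTA. Their part in the low signal of E4f1 and Flywch2 was not tested, and centred values cannot show whether a marker was at background.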

How the data were processed

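Signals came from 18 Affymetrix mouse arrays. RNA was extracted with an RNeasy Micro kit, amplified with WT-Ovation Pico and biotin labelled, per the labels' protocols. The deposited log2 values were RMA normalised by the authors in GeneSpring GX 10.0, per the series' design text. Each row of the deposited log2 values has a median of 0 (tolerance 5e-07) across the 18 arrays, so levels are lost and dim probe sets could not be filtered. The number of arrays limits the precision. Background correction is not given in the sources used here.

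The 64 control probe sets were left out. Each probe set was tested singly with limma 3.58.1 in R 4.3.3 (lmFit, eBayes, 6 group means, 12 residual degrees of freedom), two-sided, Benjamini-Hochberg over 45037 probe sets, threshold 0.05. Gene lists, neighbours and chromosomes averaged all probe sets of a gene, over 18193 genes with 1 symbol. Of these, 18143 were placed by the RefSeq table of GRCm38.p6. The fit was tested on simulated data. Correlations were tested by permutation with scipy 1.17.1, with 100000 resamples. Figures were drawn with matplotlib 3.10.9.

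Named genes are the probe sets of E4f1 and Flywch2, the 8 genes of highest and 5 of lowest correlation with each (clone names skipped), the 10 measured genes on each side, genes of chromosome 17 apart after 10 days, and members of 12 lists. Genes and lists were chosen with earlier results of these data known. Alternatives were array centring, repeated quantile normalisation, averaging of probe sets, a fit of only the groups compared, array weights, a replicate block and omission of each array.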

Additional observations from a re-analysis of the deposited data

Results flagged for a closer look

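The means of E4f1 after 2 days of MPTP lay below saline in SN and above it in VTA, with arrays that overlapped saline in both regions. SN saline array 1, at -0.012, lay below every SN 2 day array, the lowest of which was at 0.16. Measured from the mean of the saline arrays, the 3 SN arrays were at -0.23 to -0.18 and the 3 VTA arrays at 0.082 to 0.94. The difference of the 2 responses was 0.6445 on the log2 scale, with an SE of 0.35, and did not pass limma's test (adjusted p = 1). Of the 3 VTA arrays, array 3 was at 0.87 and the others at 0.012 and 0.21, and VTA saline array 1 was the lowest control, at -0.43. With any 1 array left out the difference ran from 0.39 to 0.84, and it was 1.02 without SN saline array 1 and VTA 2 day array 1, the arrays of widest spread.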

How the results depend on the processing

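None of the 9 tests passed under any alternative run. The 10 day differences from saline kept their direction for all 3 probe sets, with any 1 array left out between -1.55 and -1.23 (SN) and -1.11 and -0.755 (VTA) for E4f1, -1.58 and -1.26 and -1.35 and -0.755 for Flywch2 probe set A, and -0.73 and -0.55 and -0.72 and -0.56 for probe set B. The mean of the Flywch2 probe sets was -1.03 in SN against saline and -0.63 against 2 days. VTA minus SN in saline for probe set A turned to -0.016 after repeated quantile normalisation and ran from -0.21 to 0.39 with 1 array left out. Other ranges with 1 array left out were -0.14 to 0.46 (probe set A) and -0.0545 to 0.52 (probe set B) for the regional difference of the 2 day response, -0.068 to 0.36 for VTA minus SN of E4f1 after 2 days, -0.59 to 0.012 (A) and -0.41 to 0.17 (B) for 2 days against saline in VTA, and -0.81 to -0.24 for 10 against 2 days of probe set B in VTA. The cause of these shifts was not tested. With SN saline array 1 and VTA 2 day array 1, the arrays of widest spread, left out, no difference turned.

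The 26 genes of chromosome 17 became 26 after array centring, 24 after repeated quantile normalisation, 43 of 1501 as single probe sets, 33 without the arrays of widest spread and 29 to 35 with 1 array left out, where fewer arrays make a lack of overlap more frequent everywhere. Its share was 1.94 to 3.27 times that of the other chromosomes. These counts were made with E4f1 and Flywch2, chosen for being low, left in. Without them its share in the main run was 2.87%, against 1.01% on the other chromosomes. These alternatives were added after seeing the data.

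SN and VTA arrays share replicate numbers. Correlations of same-numbered arrays' deviations ran from 0.068 to 0.36, with 7 of 9 pairs above 0.1, and 8 of 9 SN arrays correlated best with their own number, a hint from the data and not from the design. The replicate block joined arrays of the same number across all treatments, so it does not account for mice shared between regions within a treatment. With this block, VTA minus SN of E4f1 in saline was -0.46 with an SE of 0.20 (limma, adjusted p = 0.885), and 0 of the 9 tests passed.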

Other observations

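Among the 17 genes whose 6 10 day arrays lay apart from all 12 others, those outside chromosome 17 included Jmjd4 (-0.99 ± 0.25 in SN and -1.18 ± 0.25 in VTA) and the clone-named 2610507I01Rik (-0.85 ± 0.32 and -1.35 ± 0.32), which lie 7 places apart in gene order on chromosome 11. The zinc finger gene Zbtb16, a glucocorticoid-responsive gene, was at -0.72 ± 0.20 and -0.69 ± 0.20, and the endoplasmic reticulum chaperone gene Hspa5 at -0.27 ± 0.12 and -0.38 ± 0.12, with its 3 probe sets between -0.28 and -0.24 in SN. None of these 4 genes passed limma's test in either region (adjusted p of 0.318 or above), and they were named after their values were seen. The SN and VTA arrays behind these values may share mice.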
